A study of Homo sapiens with 6 samples.

Results

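The genes described here encode the ATP-binding cassette (ABC) proteins, chosen as the protein-coding rows of the expression table whose symbol is ABC, a letter from A to G and a number. The rule found 45 genes among the 58735 genes of the table: 12 of subfamily A, 9 of B, 11 of C, 4 of D, 1 of E, 3 of F and 5 of G. They were measured by RNA sequencing of total RNA from U937, an established human line of myeloid leukaemia cells that resemble young monocytes. The 3 shENO1 libraries come from U937 cells labelled shENO1, taken to mean a short hairpin RNA (shRNA) aimed at ENO1, which encodes enolase 1 of glycolysis. The 3 wild-type libraries come from U937 cells with no hairpin named. No library of a control hairpin was analysed here, so carrying a hairpin and losing ENO1 cannot be told apart. Neither the hairpin's sequence nor the number of clones is given in the sources used here. The comparison asks what ENO1 knockdown does to these cells.

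ABC proteins share a domain that binds and splits ATP. In most members of subfamilies A, B, C, D and G that domain drives the movement of lipids, sterols, drugs, conjugates, haem precursors or acyl-CoA across a membrane. Members differ in what they carry and in which membrane they sit in: the plasma membrane, lysosomes and lamellar bodies, peroxisomes or mitochondria. Subfamilies E and F have no membrane part and work at ribosomes. In leukaemia cells the family is best known for drug efflux, and in macrophages for the export of cholesterol.

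Levels are in FPKM (fragments per kilobase of gene, corrected for sequencing depth), which can be compared between genes because length is divided out. The table also gave back the reads behind each value, 15257070, 14845420 and 17499636 reads in genes in the shENO1 libraries and 14836584, 15886584 and 14216739 in the wild-type libraries. ENO1 itself was at 91.5, 82.7 and 111 FPKM in shENO1 cells, against 526, 545 and 561 FPKM in wild-type cells, so 17.5% of the wild-type mean was left (exact two-sided permutation test, p = 0.1, which is as low as groups of 3 can go). Of 12 myeloid markers, 11 averaged at least 1 FPKM and summed to 2838 to 4686 FPKM in shENO1 cells and 2522 to 3164 FPKM in wild-type cells, with MPO under that level. Markers of T cells, erythroid cells and epithelium summed to under 1 FPKM in every library, CD3D, CD3E, HBB and KRT19 being at 0 throughout. Of the other lists, 5 B cell markers summed to 7.61 to 11.3 FPKM in shENO1 cells and 9.68 to 11.5 FPKM in wild-type cells, with CD79A the highest and MS4A1 at 0. The 5 fibroblast markers summed to 0.652 to 1.27 FPKM in shENO1 cells and 1.28 to 1.53 FPKM in wild-type cells, mostly COL1A1. Both replicates numbered 3 stood apart from their groups: on the component of the libraries' variance that held 27.3%, shENO1 replicate 3 was at -34.7 and wild-type replicate 3 at 32.2, with the other libraries between -9.15 and 13.2. Their deviations also ran opposite ways with gene length (rank correlation over protein-coding genes, Spearman rho -0.37 in shENO1 replicate 3 and 0.18 in wild-type replicate 3, and -0.11 to 0.25 in the others). The tested ABC genes are long, with a median gene length of 7589 bases against 4152 bases over all tested genes.

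U937 cells expressed a minority of the family, and more of those members were higher than lower in the shENO1 cells. Of the 45 genes, 17 averaged at least 1 FPKM over the 6 libraries and were tested, and each of the 17 also averaged over 1 FPKM in both groups. Another 5 averaged 0.312 to 0.602 FPKM on 41.5 to 122 reads, 17 were above 0 but averaged at most 0.0506 FPKM, and 6 were at 0 in all 6 libraries. Of the 17, 7 rose, among them ABCB10, ABCF2, ABCE1, ABCF1, ABCC4 and ABCA3, and 1 fell, while 7.86% of all tested genes were called higher and 6.46% lower. Called means an adjusted p under 0.05 in a limma fit of log2(FPKM + 1) over all 12809 genes that averaged 1 FPKM or more. The log2 fold changes below are on that scale, which understates the change of low genes. The p-values rest on the spread among libraries, and that spread may be technical since separate cultures are not named. The median log2 fold change was 0.29 over the 17 members, -0.02 over all tested genes and 0.02 over the tested protein-coding genes. Of those 10032 protein-coding genes, 954 were called higher and 547 lower. In 13 of the 17 the groups did not overlap, 9 of them higher and 4 lower in shENO1 cells, against 37.5% of all tested genes. Summed over the 45 genes, the family reached 193, 193 and 182 FPKM in shENO1 cells, against 147, 144 and 153 FPKM in wild-type cells. In RNA from whole cultures, fewer cells that express a gene and less of its RNA per cell cannot be told apart.

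**Figure D1:**
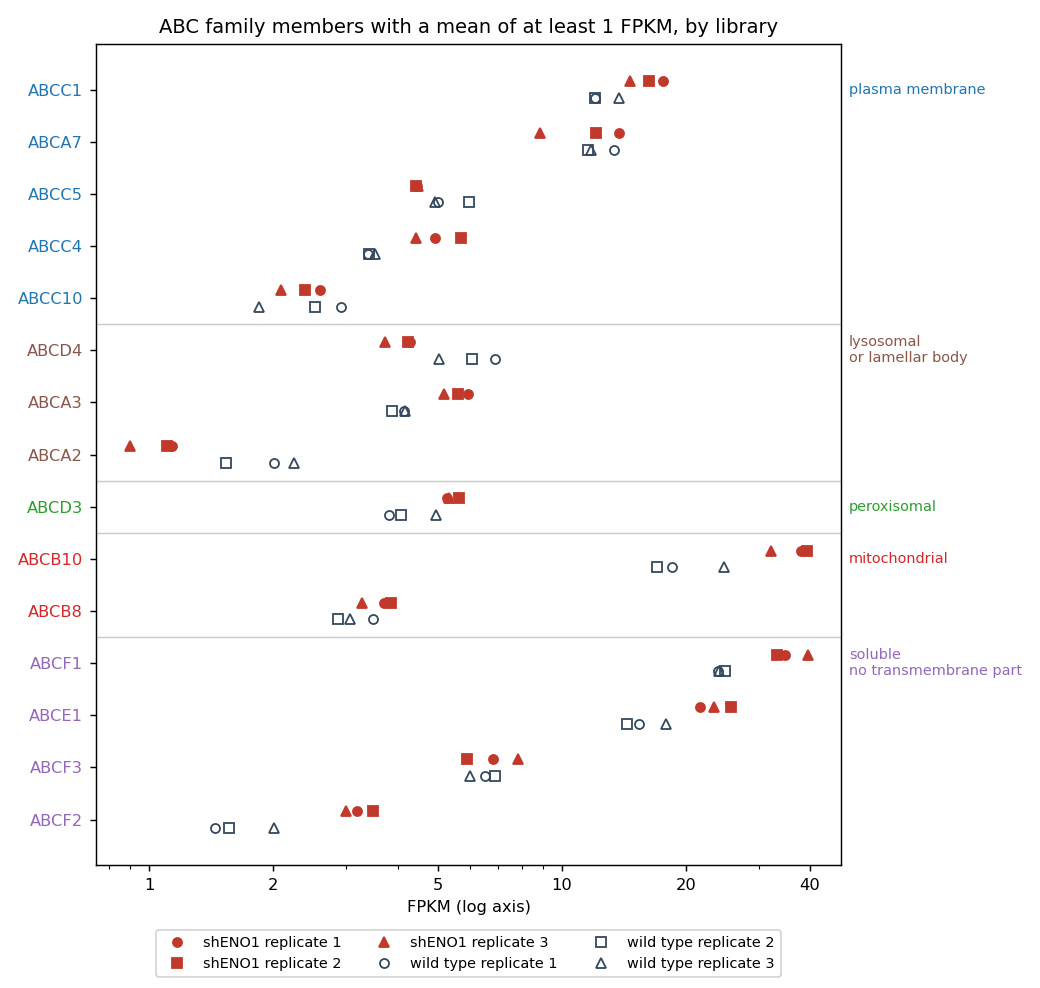
FPKM (log axis) of 15 of the 17 tested members in every library, shENO1 libraries (filled, upper row of each gene) and wild-type libraries (open, lower row), grouped by the membrane or compartment of the protein. ABCF1 and ABCB10 stand highest and ABCA2 lowest. The rows of ABCB10, ABCE1 and ABCF1 do not overlap between groups, nor do those of others, among them ABCC1 and ABCC5, which did not pass the test.

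**Figure D2:**
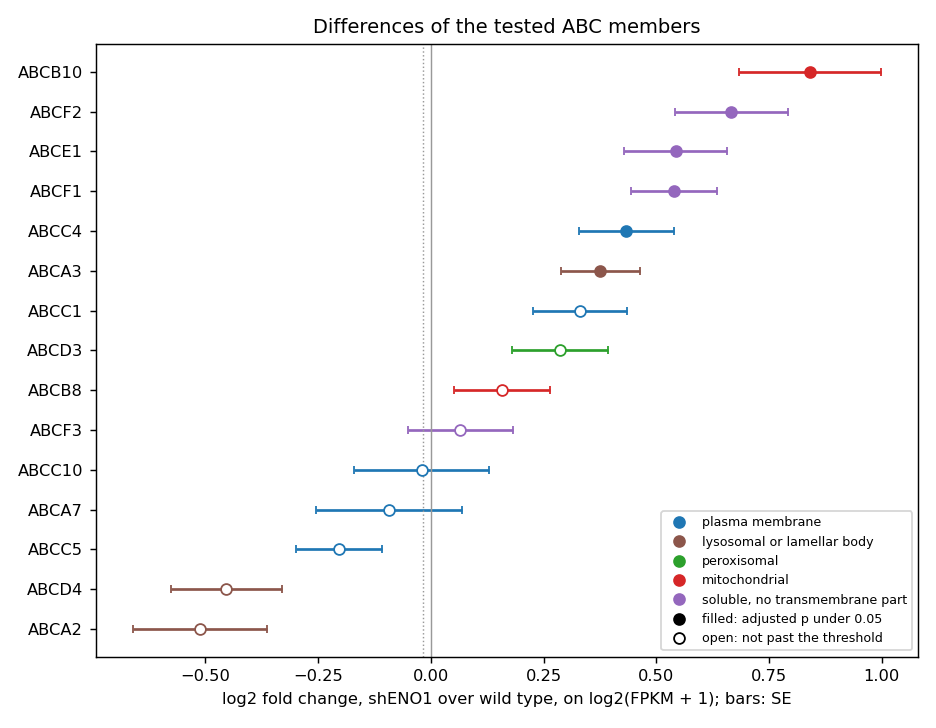
Log2 fold change of 15 of the 17 tested members, shENO1 over wild type on the log2(FPKM + 1) scale, with standard errors as bars; colours give the compartment, filled points passed the test, and the dotted line is the median of all tested genes. ABCB10 (0.84) lies at the upper end and ABCA2 (-0.51), an open point, at the lower end.

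The calls depended on which libraries and how many genes entered the fit. With no filter on low FPKM, 31500 genes were tested and 2 members were called higher, ABCF1 among them, and 0 lower. With wild-type replicate 1 or 2 or shENO1 replicate 1 left out, 1 member was higher and 0 were lower, none of ABCB10, ABCF2, ABCE1, ABCF1, ABCC4 and ABCA3 passing, and over all genes the calls numbered 147, 214 and 288 higher and 134, 159 and 266 lower in that order, from 1007 and 828. Without shENO1 replicate 2, 2 members were called higher, ABCF1 among them, and 0 lower. Without shENO1 replicate 3, 6 were higher and 0 lower. Without wild-type replicate 3, 5 were higher and 2 lower, ABCD4 among these. No member's call changed its direction in these fits. Scaling the libraries outside the mitochondrial chromosome moved the median of all genes to 0.08 and called 1396 genes higher and 501 lower, with 6 members higher (ABCC4 lost) and 0 lower. Scaling to 1 common FPKM total moved the balance the other way, with 835 genes higher and 852 lower, and 5 members higher (ABCC4 and ABCA3 lost) and 1 lower. Leaving out both replicates numbered 3 gave 9 higher, with ABCC1 and ABCD3 added, and 2 lower. The libraries were chosen for standing apart, so a smaller spread within groups is built into that setting.

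**Figure D3:**
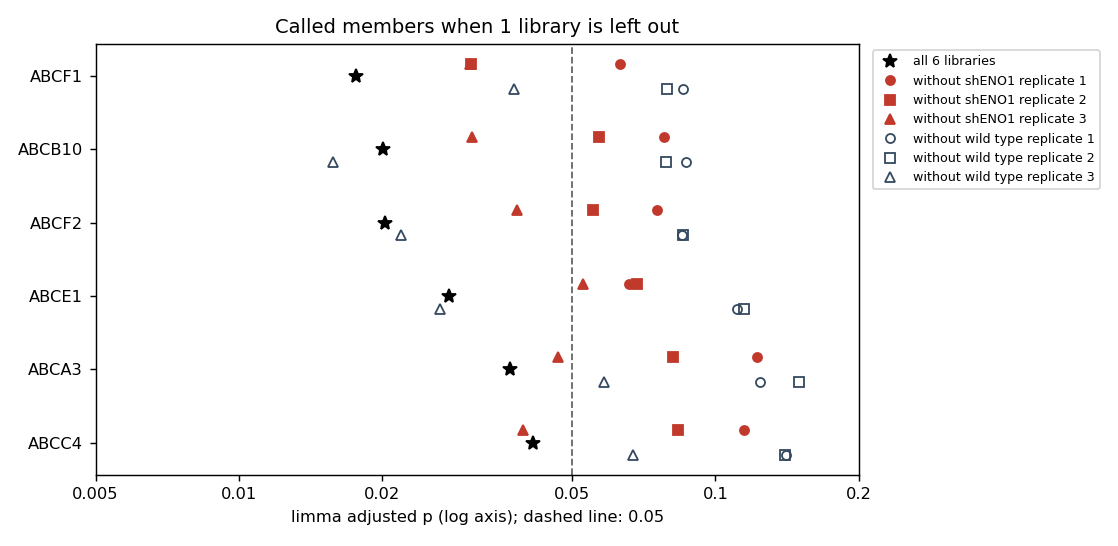
Limma adjusted p (log axis) of 6 called members with all 6 libraries (stars) and with 1 library left out, shENO1 replicates filled and wild-type replicates open; the dashed line marks 0.05. ABCF1 reaches 0.0856 without wild-type replicate 1, and ABCA3 0.15 without wild-type replicate 2.

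The soluble members, which have no transmembrane part, were the most abundant class and summed to 66.5, 68.3 and 73.7 FPKM in shENO1 cells, against 47.4, 47.7 and 49.9 FPKM in wild-type cells. ABCF1, ABCE1 and ABCF2 rose and ABCF3 did not pass the test. ABCF1 (ENSG00000204574, chromosome 6, 30571376 to 30597179, plus strand, GRCh38), which binds ribosomes and the initiation factor eIF2, was at 34.8, 33.3 and 39.5 FPKM in shENO1 cells and at 24.0, 24.9 and 24.0 FPKM in wild-type cells. All 3 shENO1 libraries lay above all 3 wild-type libraries, which were close together. ABCF1 averaged 35.9 ± 3.21 FPKM in shENO1 cells and 24.3 ± 0.53 FPKM in wild-type cells (SD, n = 3 each), a fold of 1.47 and a log2 fold change of 0.54 (SE 0.10, limma adjusted p = 0.0176).

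ABCE1 (ENSG00000164163, chromosome 4, 145097932 to 145129179, plus strand), the factor that splits ribosomes into their subunits after termination so that they can start again, was at 21.6, 25.7 and 23.4 FPKM in shENO1 cells and at 15.4, 14.4 and 17.9 FPKM in wild-type cells. The groups did not overlap, with wild-type replicate 3 closest to the shENO1 libraries. ABCE1 averaged 23.6 ± 2.03 FPKM in shENO1 cells and 15.9 ± 1.80 FPKM in wild-type cells (SD, n = 3 each; fold 1.48, log2 fold change 0.54, SE 0.11, limma adjusted p = 0.0276). Its exons share 276 bases with OTUD4 and 469 with ANAPC10 on the other strand, of 6265, and reads of the strands may not have been separated.

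ABCF2 (ENSG00000033050, chromosome 7, 151212490 to 151227230, minus strand), a less studied relative of ABCF1, was at 3.18, 3.50 and 3.0 FPKM in shENO1 cells and at 1.44, 1.56 and 2.0 FPKM in wild-type cells. Every shENO1 library was higher than every wild-type library, on 207 to 222 reads against 91 to 116. The mean levels were 3.23 ± 0.253 FPKM in shENO1 cells and 1.67 ± 0.296 FPKM in wild-type cells (SD, n = 3 each), 1.93-fold apart (log2 fold change 0.67, SE 0.12, limma adjusted p = 0.0203). The model AC021097.2, at 0.00978 FPKM, shares 1914 of its 4177 exon bases on the same strand. ABCF3 (chromosome 3, 184186023 to 184194012), whose yeast relative GCN20 takes part in the response to amino acid shortage, was at 6.82, 5.89 and 7.82 FPKM in shENO1 cells and 6.53, 6.89 and 5.99 FPKM in wild-type cells. Those ranges overlap (log2 fold change 0.07, SE 0.12, limma adjusted p = 0.743), and the sign turned to -0.02 without shENO1 replicate 3. Left-out libraries ended the calls of ABCF1, ABCE1 and ABCF2: without shENO1 replicate 1 the adjusted p values were 0.063, 0.0658 and 0.0753, without wild-type replicate 1 they were 0.0856, 0.111 and 0.0851, and without wild-type replicate 2 they were 0.0793, 0.115 and 0.0856, in that order. ABCE1 and ABCF2 also had 0.0685 and 0.0553 without shENO1 replicate 2, and ABCE1 0.0527 without shENO1 replicate 3.

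Among the mitochondrial members, ABCB10 rose, ABCB8 did not pass, and ABCB6 was too low for the main test. ABCB10 (ENSG00000135776, chromosome 1, 229516582 to 229558695, minus strand), a transporter of the inner membrane that erythroid cells need to make haem, was at 38.1, 39.3 and 32.1 FPKM in shENO1 cells and at 18.6, 17.1 and 24.7 FPKM in wild-type cells. The groups did not overlap, but shENO1 replicate 3 was the lowest and wild-type replicate 3 the highest of its group. Means of 36.5 ± 3.85 FPKM in shENO1 cells and 20.1 ± 4.04 FPKM in wild-type cells (SD, n = 3 each) gave a fold of 1.82 and a log2 fold change of 0.84 (SE 0.16, limma adjusted p = 0.0201). ABCB10 was the most abundant ABC member in the shENO1 cells by its mean, just above ABCF1, and ranked below ABCF1 in the wild-type cells.

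ABCB8 (chromosome 7, 151028422 to 151047782), a subunit of a mitochondrial potassium channel, was at 3.71, 3.85 and 3.28 FPKM in shENO1 cells and 3.49, 2.86 and 3.06 FPKM in wild-type cells. Its groups overlap (log2 fold change 0.16, SE 0.11, limma adjusted p = 0.355).

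The call of ABCB10 did not hold without some single libraries: the adjusted p was 0.0779 and 0.057 without shENO1 replicates 1 and 2, and 0.087 and 0.0789 without wild-type replicates 1 and 2. Reads of the genes on the mitochondrial chromosome made up 6.65%, 7.42% and 5.72% in shENO1 libraries and 3.38%, 3.49% and 5.19% in wild-type libraries. Both the share and ABCB10 were lowest in replicate 3 among shENO1 libraries and highest in replicate 3 among wild-type libraries. ABCB10 was still called with libraries scaled outside the mitochondrial chromosome, and with each scaled to 1 common FPKM total. Beyond these refits, the part of the mitochondrial reads in the result was not tested.

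Among the peroxisomal members, ABCD3 (ENSG00000117528, chromosome 1, 94418455 to 94518666, plus strand), the peroxisomal transporter of branched-chain acyl-CoA and bile acid precursors, was at 5.26, 5.64 and 5.34 FPKM in shENO1 cells and at 3.82, 4.08 and 4.95 FPKM in wild-type cells. The groups did not overlap, yet wild-type replicate 3 came near the shENO1 libraries and the gene did not pass (5.41 ± 0.203 FPKM in shENO1 and 4.28 ± 0.591 FPKM in wild-type cells, SD, n = 3 each; log2 fold change 0.29, SE 0.11, limma adjusted p = 0.122). ABCD2, a peroxisomal fatty acyl-CoA transporter, had 2, 4 and 4 reads in shENO1 libraries and 1, 1 and 4 in wild-type libraries.

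Plasma membrane members made up the longest list, 21 genes, of which 5 were tested, and only ABCC4 passed. ABCC4 (ENSG00000125257, chromosome 13, 95019829 to 95301475, minus strand), an exporter of cyclic nucleotides, nucleotide analogues and prostaglandins, was at 4.92, 5.71 and 4.43 FPKM in shENO1 cells and at 3.39, 3.41 and 3.52 FPKM in wild-type cells. The wild-type libraries were nearly alike and all lower. The means of 5.02 ± 0.648 FPKM in shENO1 cells and 3.44 ± 0.0678 FPKM in wild-type cells (SD, n = 3 each) differed 1.46-fold (log2 fold change 0.43, SE 0.11, limma adjusted p = 0.0414). ABCC4 was not called without shENO1 replicate 1 or 2 (adjusted p = 0.115 and 0.0836) or wild-type replicate 1, 2 or 3 (0.141, 0.14 and 0.0671), with each library scaled to 1 common FPKM total (0.0886), or with that scaling outside the mitochondrial chromosome (0.0557).

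ABCC1 (ENSG00000103222, chromosome 16, 15949577 to 16143074, plus strand), the multidrug resistance protein that exports glutathione conjugates and leukotriene C4, was the most abundant plasma membrane member. It was at 17.6, 16.2 and 14.6 FPKM in shENO1 cells and at 12.1, 12.1 and 13.8 FPKM in wild-type cells. The groups did not overlap, but shENO1 replicate 3 and wild-type replicate 3 lay close together, and the gene did not pass (log2 fold change 0.33, SE 0.10, limma adjusted p = 0.0806). It was called only without both of those libraries (adjusted p = 0.0206). ABCA7 (chromosome 19, 1040101 to 1065572), a phospholipid transporter tied to phagocytosis in macrophages, was at 13.8, 12.1 and 8.84 FPKM in shENO1 cells and 13.4, 11.6 and 11.8 FPKM in wild-type cells. Its wild-type values lie inside the shENO1 range (log2 fold change -0.09, SE 0.16, limma adjusted p = 0.737), and the sign was 0.07 without shENO1 replicate 3.

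ABCC5 (chromosome 3, 183919934 to 184018015), an exporter of cyclic nucleotides and glutamate conjugates, was at 4.47, 4.43 and 4.47 FPKM in shENO1 cells and at 5.01, 5.95 and 4.93 FPKM in wild-type cells. All shENO1 libraries were lower, but the difference did not pass (log2 fold change -0.20, SE 0.10, limma adjusted p = 0.199). ABCC10 (chromosome 6, 43427366 to 43450430), a broad drug exporter, was at 2.60, 2.38 and 2.09 FPKM in shENO1 cells and at 2.91, 2.52 and 1.85 FPKM in wild-type cells, overlapping (log2 fold change -0.02, SE 0.15, limma adjusted p = 0.943). The sign of ABCC10 was above 0 in 5 of the other settings, among them quantile normalisation (0.05).

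Set against each other, the 5 tested plasma membrane members had a median log2 fold change of -0.02, with 1 called higher, and ran from -0.20 for ABCC5 to 0.43 for ABCC4. The sign of that median was not stable: it was 0.0458 with quantile normalisation, 0.0642 with scaling outside the mitochondrial chromosome, 0.0507 without both replicates numbered 3, and -0.12 to 0.0813 with 1 library left out. The 3 tested mitochondrial members had a median of 0.16. ABCB10 (0.84) lay above every tested plasma membrane member, while ABCB8 (0.16) lay below ABCC4 (0.43) and ABCC1 (0.33). Members under 1 FPKM are outside these medians. By limma-voom, ABCA1 and ABCC2 of the plasma membrane had log2 fold changes of 1.45 and 0.30. Mitochondrial ABCB6 had -1.12 in that fit, and ABCB10 had 0.89. By summed level, the 21 plasma membrane genes reached 44.6, 42.3 and 35.5 FPKM in shENO1 cells, with shENO1 replicate 3 below every wild-type library, and 37.5, 36.4 and 36.8 FPKM in wild-type cells. ABCB10 alone averaged 36.5 ± 3.85 FPKM in shENO1 cells and 20.1 ± 4.04 FPKM in wild-type cells, against 40.8 ± 4.72 FPKM and 36.9 ± 0.544 FPKM for the whole plasma membrane class in the same groups (SD, n = 3 each). As a share of the family's FPKM, plasma membrane members took 21.5% ± 1.84 in shENO1 cells and 24.9% ± 0.73 in wild-type cells. ABCB10 does not stand for the mitochondrial class, whose sum and share are not reported here. The difference between the classes was not tested.

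The lysosomal and lamellar body members split as well. ABCA3 (ENSG00000167972, chromosome 16, 2275881 to 2340746, minus strand), which loads phospholipid into lamellar bodies and is also found in acute myeloid leukaemia cells, rose: it was at 5.92, 5.61 and 5.19 FPKM in shENO1 cells and at 4.14, 3.87 and 4.18 FPKM in wild-type cells. No values overlapped. Its means were 5.57 ± 0.366 FPKM in shENO1 cells and 4.06 ± 0.17 FPKM in wild-type cells (SD, n = 3 each; fold 1.37, log2 fold change 0.38, SE 0.09, limma adjusted p = 0.0371). The call was lost without shENO1 replicates 1 and 2 (0.122 and 0.0814), without wild-type replicates 1, 2 and 3 (0.124, 0.15 and 0.0583), and with each library scaled to 1 common FPKM total (0.0896).

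ABCD4 and ABCA2 were lower in each shENO1 library than in any wild-type library, and neither passed. ABCD4 (ENSG00000119688, chromosome 14, 74285423 to 74303056, minus strand), which moves cobalamin (vitamin B12) out of lysosomes, was at 4.29, 4.25 and 3.73 FPKM in shENO1 cells and at 6.91, 6.05 and 5.04 FPKM in wild-type cells (log2 fold change -0.45, SE 0.12, limma adjusted p = 0.0548). It passed by limma-voom on the reads (adjusted p = 0.0448 over genes with at least 10 reads) and without wild-type replicate 3 (adjusted p = 0.0342). A sense-overlapping locus, AC005519.1, at 3.07 FPKM, shares 624 of the 8769 exon bases of ABCD4 on the same strand. ABCA2 (ENSG00000107331, chromosome 9, 137007227 to 137028922, minus strand), an endolysosomal transporter tied to sterol and sphingolipid handling, was at 1.14, 1.10 and 0.896 FPKM in shENO1 cells and at 2.0, 1.54 and 2.24 FPKM in wild-type cells. Its mean was 1.84-fold lower in shENO1 cells (1.05 ± 0.131 FPKM against 1.93 ± 0.356 FPKM in wild-type cells, SD, n = 3 each; log2 fold change -0.51, SE 0.15, limma adjusted p = 0.0656). On the reads, which do not carry the added 1, limma-voom gave -0.86 (SE 0.19, adjusted p = 0.0173). In the main fit with 1 library left out, ABCA2 never passed (limma adjusted p = 0.11 to 0.203). ABCD4 passed in no such fit but the one without wild-type replicate 3 (highest limma adjusted p = 0.177). For ABCD4 and ABCA2, limma-voom was not refitted with a library left out.

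Below 1 FPKM, 5 members still rested on enough reads to compare, and ABCA1 and ABCA13 were higher and ABCB6 lower in shENO1 cells by limma-voom on the recovered reads of 14804 genes with a mean of at least 10 reads. In that fit, added after the low reads had been seen, 9 of 22 family members were called higher and 4 lower, while 10.1% and 6.88% of all genes in it were. ABCA1 (ENSG00000165029, chromosome 9, 104781002 to 104928237, minus strand), the transporter that hands cholesterol and phospholipid to apolipoprotein A-I, was at 0.651, 0.585 and 0.413 FPKM in shENO1 cells and at 0.14, 0.231 and 0.229 FPKM in wild-type cells, or 115, 101 and 79 reads against 24, 41 and 36. Its lowest shENO1 library was well above its highest wild-type library. The mean FPKM was 2.75-fold higher in shENO1 cells (0.55 ± 0.123 FPKM against 0.20 ± 0.0519 FPKM in wild-type cells, SD, n = 3 each), and limma-voom gave a log2 fold change of 1.45 (SE 0.32, adjusted p = 0.0159).

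ABCA13 (ENSG00000179869, chromosome 7, 48171458 to 48647496, plus strand), a very large lipid transporter, had 151, 125 and 117 reads in shENO1 libraries and 49, 65 and 48 in wild-type libraries. The groups were separate, at 0.435 ± 0.0725 FPKM in shENO1 cells and 0.19 ± 0.0249 FPKM in wild-type cells (SD, n = 3 each; limma-voom log2 fold change 1.18, SE 0.24, adjusted p = 0.0122). ABCB6 (ENSG00000115657, chromosome 2, 219209766 to 219219017, minus strand), a porphyrin transporter of the outer mitochondrial membrane and other membranes that also carries the Langereis blood group, had 32, 28 and 21 reads in shENO1 libraries and 73, 51 and 44 in wild-type libraries. Its mean was 2.19-fold lower in shENO1 cells, 0.328 ± 0.0803 FPKM against 0.718 ± 0.179 FPKM in wild-type cells (SD, n = 3 each; limma-voom log2 fold change -1.12, SE 0.34, adjusted p = 0.0486). Of its exon bases, 2864 of 5234 are shared with the same-strand gene model AC068946.2 at 0.239 FPKM. ABCB9, a lysosomal peptide transporter, and ABCC2, an exporter of bilirubin and drug conjugates, overlapped between groups (adjusted p = 0.769 and 0.53).

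With 1 library left out, limma-voom no longer called ABCA1 without shENO1 replicate 1 (adjusted p = 0.0608), wild-type replicate 1 (0.0762) or wild-type replicate 2 (0.0536), or ABCA13 without wild-type replicate 1 (0.0615). ABCB6 was called only without wild-type replicate 3 (0.0439), and had adjusted p = 0.0948, 0.0898 and 0.111 without shENO1 replicates 1, 2 and 3 and 0.172 and 0.096 without wild-type replicates 1 and 2. On log2(FPKM + 1) with no filter on low values, none of ABCA1, ABCA13 and ABCB6 passed (limma adjusted p = 0.129, 0.144 and 0.22).

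**Figure D4:**
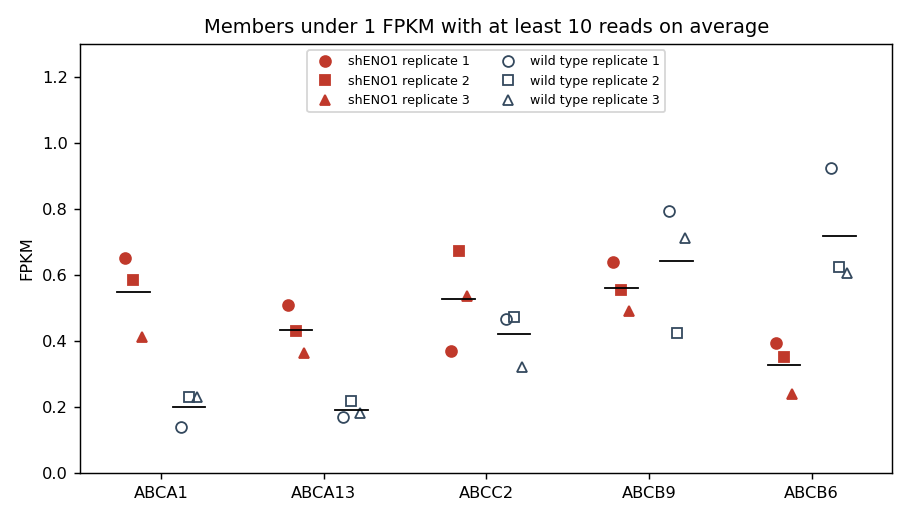
FPKM of the 5 members that averaged under 1 FPKM and at least 10 reads, by library (points) with group means (lines), shENO1 to the left of wild type for each gene. ABCA1 and ABCA13 are higher and ABCB6 lower in all 3 shENO1 libraries, whereas ABCC2 and ABCB9 overlap.

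Drug exporters differed widely in level: ABCC1 was well expressed, as above, while ABCB1 and ABCG2 were next to absent. ABCB1, the gene of P-glycoprotein, had 0, 1 and 0 reads in shENO1 libraries and 0, 0 and 3 in wild-type libraries, and ABCG2, the breast cancer resistance protein, had 0 reads in all 6. ABCG1, the partner of ABCA1 in cholesterol export from macrophages, had 1 read in wild-type replicate 2 and 0 elsewhere. None of the 5 members of subfamily G reached 0.1 FPKM on average, and the most reads of any of them were 12, for the sterol transporter ABCG5 in wild-type replicate 3. A count of 0 allows up to 3 reads in a library, which is 0.0153 to 0.0429 FPKM for the 6 members at 0 (ABCA8, ABCB5, ABCC9, ABCC12, ABCG2 and ABCG4), for counting error only. The 5 genes of the ABCA5, ABCA6, ABCA8, ABCA9 and ABCA10 cluster on chromosome 17, which lie side by side from 68867292 to 69327244, had 1, 0 and 0 reads together in shENO1 libraries and 0, 2 and 11 in wild-type libraries. Over all 23 members with under 10 reads on average, the totals were 26, 17 and 16 reads in shENO1 libraries and 20, 21 and 50 in wild-type libraries, so wild-type replicate 3 stood out with reads on 15 of these 23 genes, against 5 to 9 in each other library.

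By subfamily, the tested members of E and F had the highest medians, 0.54 for ABCE1 alone and 0.54 over the 3 F genes, of which 2 were called. Subfamily D had a median of 0.29 over 3 genes, B of 0.16 over 3 and C of 0.16 over 4. ABCB10 was called higher in B and ABCC4 in C. Subfamily A had a median of -0.09 over 3 tested genes with 1 called higher. By limma-voom on the reads it split, with the low members ABCA1 and ABCA13 higher and the tested member ABCA2 lower (-0.86). No member of G was tested. As a share of the family's FPKM, subfamily F took 24.3% ± 2.90 in shENO1 cells and 21.9% ± 1.16 in wild-type cells, and subfamily A 10.1% ± 1.41 in shENO1 cells and 12.6% ± 0.756 in wild-type cells (SD, n = 3 each). With so few genes in each, the medians describe these members and no difference between subfamilies was tested.

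Of the genes that work with the family, 5 lists were counted, to be read beside the 7.86% of all tested genes called higher and 6.46% called lower. No list was tested as a group. Of 13 tested partners of sterol efflux and the liver X receptors (LXR), the nuclear receptors that switch on ABCA1 when sterols accumulate, 1 rose and 2 fell, with a list median of -0.06. NR1H2, the LXR-beta gene, was at 18.4, 14.7 and 19.6 FPKM in shENO1 cells and 9.22, 11.0 and 9.33 FPKM in wild-type cells (log2 fold change 0.77, limma adjusted p = 0.0164). NR1H3, the LXR-alpha gene, went the other way, at 1.97, 2.08 and 2.70 FPKM in shENO1 cells and 4.37, 4.29 and 4.13 FPKM in wild-type cells (-0.70, limma adjusted p = 0.0145). MYLIP, an LXR target whose product degrades the LDL receptor, was at 19.3, 22.7 and 22.1 FPKM in shENO1 cells and 34.5, 32.3 and 33.5 FPKM in wild-type cells (-0.63, limma adjusted p = 0.0121). None of the 3 passed without wild-type replicate 1, nor NR1H2 and NR1H3 without shENO1 replicate 1, nor NR1H3 and MYLIP without wild-type replicate 2. Their highest adjusted p values with 1 library left out were 0.0754 for NR1H2, 0.071 for NR1H3 and 0.0645 for MYLIP. The part of LXR in the change of ABCA1 was not tested.

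Of 17 tested iron-sulfur cluster and haem genes, the setting of the mitochondrial members, 2 rose and 1 fell, with a median of 0.04. FECH, the ferrochelatase that puts iron into haem and a partner of ABCB10 in a complex, averaged 14.3 ± 0.829 FPKM in shENO1 cells and 10.6 ± 0.324 FPKM in wild-type cells (SD, n = 3 each; limma adjusted p = 0.0263). The chaperone gene HSPA9 averaged 34.5 ± 4.41 FPKM in shENO1 cells and 22.2 ± 0.389 FPKM in wild-type cells (limma adjusted p = 0.0189). ALAS1, which starts haem synthesis, averaged 80.5 ± 7.14 FPKM in shENO1 cells and 115 ± 5.80 FPKM in wild-type cells (limma adjusted p = 0.0294). All 3 calls ended without wild-type replicate 1 or 2, FECH and ALAS1 also without shENO1 replicate 1, ALAS1 without shENO1 replicate 2 and FECH without wild-type replicate 3, with highest adjusted p values of 0.122 for FECH, 0.0849 for HSPA9 and 0.132 for ALAS1.

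In each of the other lists 1 tested gene rose and 0 fell. Of 18 peroxisome genes (median 0.07), PEX10, a ubiquitin ligase of the import machinery, averaged 2.11 ± 0.149 FPKM in shENO1 cells and 1.19 ± 0.0904 FPKM in wild-type cells (SD, n = 3 each; limma adjusted p = 0.0386), and passed in none of the fits with 1 library left out (highest adjusted p = 0.146). Of 18 genes of ribosome recycling and start (median 0.09), EIF2S1, a subunit of the eIF2 that ABCF1 binds, averaged 23.2 ± 1.98 FPKM in shENO1 cells and 15.8 ± 1.27 FPKM in wild-type cells (limma adjusted p = 0.0233), and did not pass without shENO1 replicate 1 or wild-type replicate 1 or 2 (highest adjusted p = 0.104). The genes of the other eIF2 subunits in that list did not pass. Of 16 glutathione and detoxification genes (median -0.04), KEAP1, which holds back the antioxidant factor NRF2, averaged 21.7 ± 3.51 FPKM in shENO1 cells and 14.7 ± 1.02 FPKM in wild-type cells (limma adjusted p = 0.0431), and passed only without shENO1 replicate 2 among those fits (highest adjusted p = 0.157).

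Human ABC proteins with other symbols were listed beside the family. TAP2, the peptide transporter subunit of antigen loading, was at 8.45, 9.81 and 8.04 FPKM in shENO1 cells and 5.59, 5.08 and 5.50 FPKM in wild-type cells (log2 fold change 0.61, limma adjusted p = 0.0142). It did not pass without shENO1 replicate 1 or wild-type replicate 1 or 2 (highest adjusted p = 0.0717). Its partner TAP1 was at 16.2, 12.3 and 18.4 FPKM in shENO1 cells and 18.3, 20.02 and 16.4 FPKM in wild-type cells, overlapping (-0.22, limma adjusted p = 0.373). CFTR had a value above 0 in 1 library only, shENO1 replicate 2.

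Promoter letters were compared because members moved in different directions. RefSeq promoter windows (GRCh38.p14, 250 bases before to 50 after each start) were found for 14 of the 17 tested members and 19 of the 22 with at least 10 reads. The E-box CACGTG, the letters to which MYC and related factors bind, reads the same on both strands. It was present for 2 of the 14 tested members (ABCF1 and ABCC10), while 8.77% of 27305 genes with windows hold it. Over the wider set it was present for 5 of the 19, with ABCA1, ABCB6 and ABCB9 added, which averaged under 1 FPKM. The stretches below show it in capitals for a member that rose, a low member that was higher, a low member that was lower and a member that did not differ, 5′ to 3′ along the gene. They lie at chr6:30571323-30571408 (plus strand), chr9:104928257-104928342 (minus), chr2:219219069-219219154 (minus) and chr6:43427340-43427425 (plus), and the E-box begins 79, 147, 156 and 161 bases before the start, in that order.
ABCF1: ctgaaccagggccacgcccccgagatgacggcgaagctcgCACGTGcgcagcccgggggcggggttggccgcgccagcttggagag
ABCA1: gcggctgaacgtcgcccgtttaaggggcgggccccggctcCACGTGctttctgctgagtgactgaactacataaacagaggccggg
ABCB6: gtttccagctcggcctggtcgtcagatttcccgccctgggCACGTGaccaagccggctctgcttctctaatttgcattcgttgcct
ABCC10: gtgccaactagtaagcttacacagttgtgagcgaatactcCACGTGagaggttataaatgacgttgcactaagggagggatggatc
Windows of ABCF2, ABCC4 and ABCA3, which rose, held no CACGTG. None was found for ABCB10 or ABCE1, which also rose, but not every tested member has a window. Of the other motifs searched on both strands, CCAAT was in 3 of the 14 windows of tested members (ABCA7, ABCB8 and ABCF2), against 39.7% of genes, and TGACNNNGC, the core of the antioxidant response element, in 6 (ABCA2, ABCA3, ABCC4, ABCC10, ABCD4 and ABCF1), against 16.1% of genes. The palindromic site of NRF1, nuclear respiratory factor 1, was in 0 of the 14, against 1.52% of genes. The shares of genes are over all genes with windows, with no filter on expression or coding. They are not matched to the expressed members, and no enrichment was tested. A match is a string of letters and not a shown binding site, and a missing match says only that the letters are not in this window.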

How the data were processed

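Groups and replicate numbers come from the submitters' labels. Library preparation used TruSeq chemistry, per the labels' protocols. The deposited values are FPKM, which the authors made with STAR, Cufflinks and Cuffnorm on hg38 (GRCh38), per the submitters' processing notes; versions, and settings for strand, are not given in the sources used here. The 45 members have the coordinates of GENCODE release 29. FPKM multiplied by gene length came out, in each library, as a multiple of 1 common step for 100% of values above 0 (tolerance 0.001), and that multiple was taken as reads. Replicates were not copies of each other (chi-square per degree of freedom 4.30 to 46.5).

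The main test, limma 3.58.1 under R 4.3.3 on log2(FPKM + 1), covered genes averaging 1 FPKM or more (trended empirical Bayes, Benjamini-Hochberg over 12809 genes, adjusted p under 0.05). limma-voom on recovered reads was run beside it. SD is over 3 libraries; SE is moderated. The fit was tested on simulated data. The labels do not say whether libraries came from separate cultures.

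Members, compartments and partner lists were chosen with earlier results of these data known; compartments are textbook knowledge. The rule for named genes took every tested member, low members by their highest levels, ENO1, up to 4 called genes per partner list, TAP1, TAP2 and CFTR; 1 list symbol, FDX1L, was matched through FDX2. A pseudogene, ABCC13, matched the symbol and was left out. Figures used matplotlib 3.10.9 in Python 3.11.15. Results of some members are not reported here; counts, medians and sums over the family include them.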

Additional observations from a re-analysis of the deposited data

How the results depend on the processing

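ENO1, the medians and the member calls were recomputed with other pseudocounts, filters, scalings and priors, on recovered reads, with gene length trends removed and with libraries left out. From 7 higher and 1 lower member, the counts were 2 and 0 with no filter on FPKM (31500 genes tested), 7 and 3 with limma-voom and with the length trend removed, 7 and 2 without the mean-variance trend, 5 and 1 with a common FPKM total, 6 and 0 with libraries scaled outside the mitochondrial chromosome, 9 and 2 without both replicates numbered 3, and 1 to 6 higher and 0 to 2 lower with 1 library left out. Over all genes, 1007 were higher and 828 lower, against 835 and 852 with a common FPKM total and 1396 and 501 with scaling outside the mitochondrial chromosome, which moved the median of all genes to 0.08. The mitochondrial median of 0.16 was 0.0823 with a pseudocount of 5 and 0.25 with the scaling outside the mitochondrial chromosome, and 0.11 to 0.22 with 1 library left out. The plasma membrane median of -0.02 was above 0 with quantile normalisation, with scaling outside the mitochondrial chromosome, without both replicates numbered 3, and without shENO1 replicate 3 or wild-type replicate 1 or 2. Leaving ABCB6 or ABCG1 out of its class changed nothing, since neither was tested. Called partner genes, counted together with the ABC proteins of other symbols such as TAP2, numbered 10. They numbered 19 without both replicates numbered 3 and 0 to 9 with 1 library left out. Among single members, signs turned only for ABCA7, ABCF3, ABCC10 and ABCB9, none of them called: ABCA7 was 0.0157 with scaling outside the mitochondrial chromosome, 0.0507 without both replicates numbered 3 and -0.22 to 0.0747 with 1 library left out, above 0 without shENO1 replicate 3. ABCF3 was -0.0704 without both replicates numbered 3 and -0.0233 to 0.16 with 1 library left out, below 0 without shENO1 replicate 3. ABCC10 was 0.0458 with quantile normalisation, 0.0642 with scaling outside the mitochondrial chromosome and -0.15 to 0.0813 with 1 library left out, above 0 without shENO1 replicate 3 and wild-type replicates 1 and 2. ABCB9 by limma-voom was -0.43 to 0.0623, above 0 without wild-type replicate 1. The cause of these shifts was not tested.

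Replicate numbers did not pair the libraries: correlations of same-numbered deviations were -0.08, -0.33 and -0.46. With the replicate block, 0 members were higher and 0 lower, 0 partner genes were called, 0 genes of all tested were called higher and 1 lower, and ENO1 kept -2.51 with an adjusted p of 0.0713. Reads limit ABCA1, ABCA13 and ABCB6 (21 to 151 per library) and, below them, 23 members with under 10 reads on average.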
